A study of Homo sapiens with 9 samples.

Results

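The genes described are 8 widely used transcriptional targets of the coactivators YAP and TAZ (CCN1, CCN2, ANKRD1, AMOTL2, AXL, LATS2, F3 and DOCK5), together with YAP1, which encodes YAP, and TEAD1, which encodes a DNA-binding partner of YAP and TAZ. They are 10 of 18132 genes on the arrays, and were taken by gene symbol from every probe set that carries only that symbol, 31 of 49293 probe sets. Of these, 25 probe sets, from 9 of the 10 genes, passed the filter on dim signal (a mean intensity above 25.5), and ANKRD1 did not pass. RNA was measured on Affymetrix arrays in HCCC-9810, a human cholangiocarcinoma cell line, with 3 biological replicates each of cells given siRNA against BAP1 (si-BAP1), cells given siRNA against MBD5 (si-MBD5) and control cells (si-Control). BAP1 is a nuclear deubiquitinase, and MBD5 is a methyl-CpG-binding-domain protein that can associate with the BAP1 complex. The control RNA has conflicting labels, siRNA in the titles and shRNA in the treatment field. The labels used here give no time after treatment and no number of siRNA sequences per gene.

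In the Hippo pathway, the kinases encoded by STK3 and STK4 activate the LATS kinases, which phosphorylate YAP and TAZ and hold them out of the nucleus. Unphosphorylated YAP and TAZ enter the nucleus and bind TEAD factors, which recognise a short DNA core and switch on genes of matrix, adhesion and growth. LATS2 and AMOTL2 are both targets and inhibitors of YAP, and so form a feedback arm. The pathway controls bile duct growth, and YAP is often active in cholangiocarcinoma. Arrays read RNA only, so phosphorylation and location of YAP were not measured.

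The sequences around the gene starts are shown because the TEAD core is the DNA element that the TEAD partners of YAP and TAZ recognise. RefSeq windows of 250 bases before and 50 after the start (GRCh38.p14) were matched by symbol for 7 of the 10 members, in 9 windows, since AMOTL2 and AXL each have a pair of starts. CCN1 and TEAD1 were among the members with no window, and sites outside the windows were not searched. The motif searched was GGAATG, on both strands. It was present in 6 of the 9 windows and in 14% of all 35116 windows in the table. The 4 windows printed are those of CCN2, whose RNA rose in both knockdowns, of LATS2, which also rose, of AMOTL2 (its second start), which fell in si-MBD5 cells, and of ANKRD1, whose signal stayed dim. They run 5′ to 3′ on the minus strand, on which all 4 genes lie, and capitals mark the core (CATTCC where it lies on the opposite strand).
CCN2 at chr6:131951323-131951622: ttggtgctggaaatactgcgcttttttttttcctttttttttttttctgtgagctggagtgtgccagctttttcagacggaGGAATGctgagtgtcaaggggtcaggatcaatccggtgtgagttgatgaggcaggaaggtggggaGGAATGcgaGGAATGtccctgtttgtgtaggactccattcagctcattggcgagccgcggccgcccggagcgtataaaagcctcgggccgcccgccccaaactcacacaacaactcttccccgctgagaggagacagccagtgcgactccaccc
LATS2 at chr13:21061537-21061836: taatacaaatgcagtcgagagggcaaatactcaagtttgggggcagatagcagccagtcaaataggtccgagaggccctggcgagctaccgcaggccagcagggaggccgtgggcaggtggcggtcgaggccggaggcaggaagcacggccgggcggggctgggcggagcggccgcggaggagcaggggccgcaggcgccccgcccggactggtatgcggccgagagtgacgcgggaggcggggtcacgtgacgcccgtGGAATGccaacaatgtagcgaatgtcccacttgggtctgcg
AMOTL2 at chr3:134374398-134374697: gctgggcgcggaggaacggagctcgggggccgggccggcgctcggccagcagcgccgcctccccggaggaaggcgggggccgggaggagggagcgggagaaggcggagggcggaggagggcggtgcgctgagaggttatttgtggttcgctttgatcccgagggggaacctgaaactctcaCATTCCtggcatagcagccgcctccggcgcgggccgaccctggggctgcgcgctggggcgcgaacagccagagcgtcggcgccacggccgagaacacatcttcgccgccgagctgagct
ANKRD1 at chr10:90921038-90921337: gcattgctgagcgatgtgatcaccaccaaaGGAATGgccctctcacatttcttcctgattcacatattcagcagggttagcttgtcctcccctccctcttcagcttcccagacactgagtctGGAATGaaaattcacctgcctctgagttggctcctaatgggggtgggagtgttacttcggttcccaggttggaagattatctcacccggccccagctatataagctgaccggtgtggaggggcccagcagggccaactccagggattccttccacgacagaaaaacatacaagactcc

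The CCN2 window held 3 matches, at -169, -104 and -95 from the start, and 0.128% of all windows hold 3 or more. ANKRD1 held 2, at -220 and -128, and 1.37% of windows hold 2 or more. LATS2 had 1 match, at position 10 after the start. AMOTL2 and AXL each had 1 at their second start, at -69 and -212, and YAP1 had 1 at -162. F3 had 0 matches to this core, but held 2 matches to TGANTCA, at -223 and -210. This is a loose form of the AP-1 motif, in which N can be any base and not only C or G. ANKRD1 held 1 match to this loose form, with T at N, and 7.71% of all windows hold at least 1. No window of a member held a CArG box, against 1.29% of all windows, and matches of the 3 motifs did not overlap in these windows (0 overlaps). These matches describe letters and were not tested as binding sites. Genes with a match moved in both directions below.

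**Figure D1:**
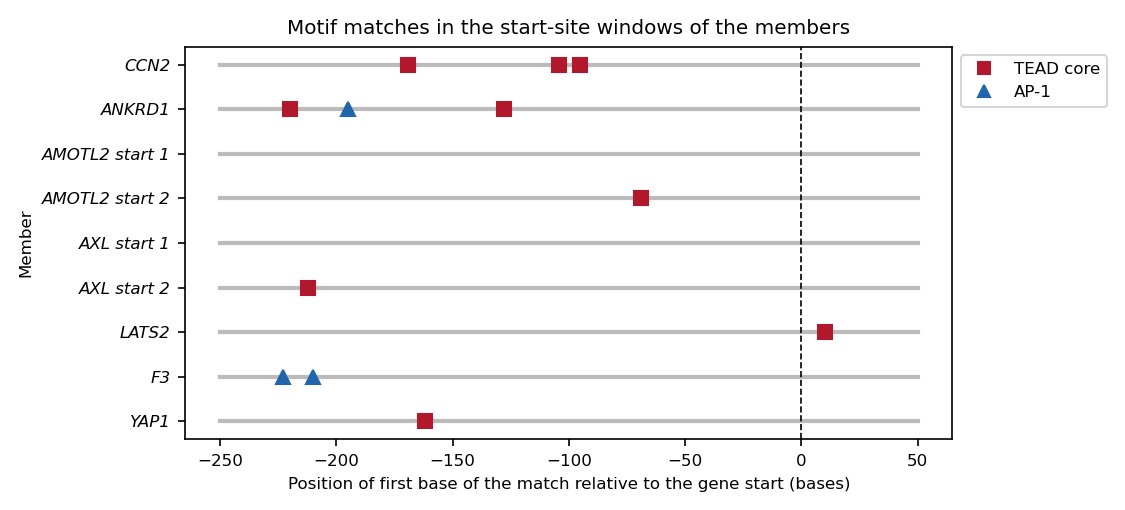
Positions of matches to the TEAD core and to TGANTCA (labelled AP-1) in 9 start-site windows of 7 members. The horizontal axis is in bases from the gene start (dashed line), with each square or triangle at the leftmost base of a match. CCN2 holds 3 TEAD cores and ANKRD1 holds 2, while F3 holds only AP-1 matches among the motifs searched.

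All 9 arrays were close to each other. Array medians of intensity lay between 36.9 and 38.2, and log2 values correlated at 0.998 to 0.999 within groups (9 pairs) and 0.996 to 0.998 between groups (27 pairs). The target genes could not check the labels: BAP1 was not analysed here, and the brighter MBD5 probe set, at the 11.9th percentile of signal, read 6.17 ± 0.056 in si-MBD5 and 7.04 ± 0.13 in si-Control arrays (SD, n = 3 each). Of 10 cholangiocyte markers, 6 were above the filter, with KRT7 at 930 to 1146 and KRT18 at 1610 to 1857. KRT19 (18.4 to 23.2), EPCAM and CDH1 were below it. Fibroblast and endothelial markers, which bear on matrix genes such as CCN1 and CCN2, were dim: 4 of 9 were above the filter, LUM had a mean of 2.30 and COL3A1 of 7.87. Their summed intensity was 230.3 to 254.0 in si-BAP1, 233 to 260 in si-MBD5 and 225 to 233 in si-Control arrays. In that list PDGFRB was called higher, with log2 0.16 in si-BAP1 and 0.24 in si-MBD5 cells (limma adjusted p = 0.0406 and 0.00629). Their part in the results was not tested. For ACTB, whose control probe sets at both transcript ends read RNA integrity, 3′ signal over 5′ signal was 11.1 ± 0.31 in si-BAP1, 12.3 ± 0.72 in si-MBD5 and 12.2 ± 0.52 in si-Control arrays. The si-BAP1 arrays lay below the others (two-sided exact permutation p = 0.1 against either, the smallest that 3 against 3 arrays can give), and the part of this in the results below was not tested. For GAPDH the same ratio was far lower, at 1.08 ± 0.011 in si-BAP1, 1.07 ± 0.0046 in si-MBD5 and 1.06 ± 0.026 in si-Control arrays.

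In si-BAP1 cells 4 of the 9 tested members rose against si-Control (CCN1, CCN2, LATS2 and DOCK5), 1 fell (AXL), and 4 did not pass (AMOTL2, F3, TEAD1 and YAP1). The rises were of 1.18-fold to 1.53-fold in intensity with 16 added. Each log2 fold change is a difference between mean log2(intensity + 16) values, which are smaller than plain ratios for dim probe sets, and calls are at a limma adjusted p under 0.05 over 12434 genes, each read from its brightest probe set. Over all genes 23.5% were called, 12.4% higher and 11.1% lower. These were 1536 higher and 1382 lower genes, and the balance turned with quantile scaling, to 1516 higher and 1567 lower. The median log2 fold change was 0.10 for the 9 members and 4.7e-04 for all genes. By probe set, 9 of 25 rose and 1 fell, where 20.2% of all probe sets were called. The arrays of the 2 groups did not overlap in 5 of the 9 members and in 37.5% of all genes. The members were named with earlier results of these arrays known, so these shares are set side by side without a test.

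In si-MBD5 cells 3 of the 9 rose (CCN1, CCN2 and LATS2), 2 fell (AXL and AMOTL2), and 4 did not pass (F3, DOCK5, TEAD1 and YAP1). Over all genes 16.3% were called, 7.29% higher and 8.99% lower. These were 907 higher and 1118 lower genes, and with quantile scaling the balance turned, to 1108 higher and 1055 lower. The median was 0.027 for the members and 8.5e-05 for all genes. By probe set 7 of 25 rose and 2 fell, against 12.5% called among all probe sets, and arrays did not overlap in 5 members and in 30.4% of genes. Both knockdowns were set against the same 3 control arrays, so a high or low control array moves both comparisons. The direct comparison of si-BAP1 with si-MBD5, which does not use the controls for its difference, called 1 of 9 members, DOCK5, higher and 0 lower. That share is close to the 9.97% called among all genes (5.76% higher, 4.21% lower). The split over all genes was 716 higher and 524 lower, and turned to 603 higher and 711 lower with quantile scaling. By probe set it called 3 of 25 higher, against 7.69% of all probe sets, and arrays did not overlap in 5 members and 25.0% of genes.

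**Figure D2:**
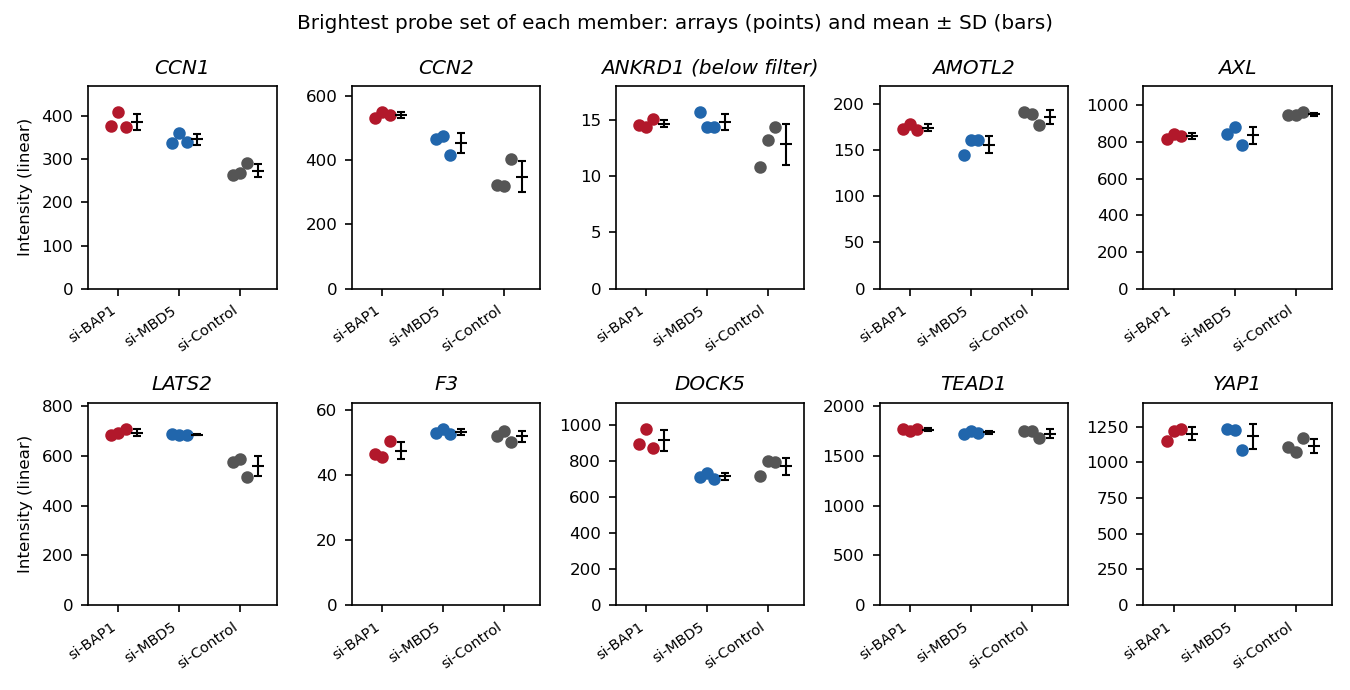
Intensity (linear axis from 0) of the brightest probe set of each of the 10 members in si-BAP1, si-MBD5 and si-Control arrays, with 1 point per array and bars for mean ± SD (n = 3). CCN1 and CCN2 step down from si-BAP1 through si-MBD5 to si-Control with no overlap of the groups, AXL is higher in si-Control, and the TEAD1 groups overlap.

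CCN1 and CCN2 encode secreted matricellular proteins that bind integrins, and are the targets most often used to read YAP activity. Both stood highest in si-BAP1 cells, next in si-MBD5 cells and lowest in si-Control cells, on every probe set. CCN2 read 533, 548 and 540 in si-BAP1 arrays, 467, 476 and 417 in si-MBD5 arrays, and 322, 320 and 404 in si-Control arrays on its brightest probe set. The 3 groups did not overlap, and 1 control array, replicate 3, stood well above the other control arrays. Means were 540 ± 8.0 in si-BAP1, 453 ± 32 in si-MBD5 and 349 ± 48 in si-Control arrays (SD, n = 3 each). CCN2 was 1.53-fold higher with 16 added in si-BAP1 cells (log2 0.62, SE 0.075, limma adjusted p = 4.7e-05) and 1.29-fold higher in si-MBD5 cells (log2 0.37, SE 0.075, limma adjusted p = 0.00422). This brightest probe set is of the type that can match transcripts of more than 1 gene.

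The dimmer CCN2 probe sets moved the same way. The middle one read 191, 206 and 176 in si-BAP1, 141, 150 and 145 in si-MBD5, and 87.0, 97.1 and 105 in si-Control arrays. It showed the largest change of any member probe set, log2 0.88 in si-BAP1 cells (limma adjusted p = 1.1e-06 over probe sets) and 0.53 in si-MBD5 cells (limma adjusted p = 2.1e-04). The dimmest read 49.4 to 55.0 in si-BAP1, 39.2 to 43.1 in si-MBD5 and 28.8 to 36.1 in si-Control arrays (log2 0.51 and 0.28 for the knockdowns). All 3 CCN2 probe sets therefore passed in both knockdowns.

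Between the knockdowns, CCN2 differed by log2 0.25 on its brightest probe set (95% interval 0.087 to 0.41). This narrowly missed the threshold over genes (limma adjusted p = 0.0523) and missed it over probe sets (limma adjusted p = 0.0646). Over probe sets, CCN2 passed on the middle one (log2 0.36, limma adjusted p = 0.00455) and on the dimmest one (0.23, limma adjusted p = 0.0456). Over genes, the brightest probe set passed without si-MBD5 replicate 2 (limma adjusted p = 0.0479) and without si-Control replicate 3 (0.00637). Over the 18 alternatives that keep this probe set alone, its limma adjusted p ran from 0.00637 to 0.15 and passed in 5.

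CCN1 read 378, 409 and 375 in si-BAP1 arrays, 338, 362 and 341 in si-MBD5 arrays, and 263, 268 and 291 in si-Control arrays. Here too the groups were fully separate and in the same order as for CCN2. CCN1 was 1.39-fold higher with 16 added in si-BAP1 cells (log2 0.48, SE 0.049, limma adjusted p = 1.3e-05) and 1.25-fold higher in si-MBD5 cells (log2 0.33, SE 0.049, limma adjusted p = 6.4e-04). Its dimmer probe set read 184, 184 and 185 in si-BAP1, 158, 165 and 173 in si-MBD5, and 129, 139 and 141 in si-Control arrays. That probe set also passed in both knockdowns (log2 0.40 and 0.25). Between the knockdowns CCN1 differed by log2 0.15 (95% interval 0.044 to 0.26), which did not pass (limma adjusted p = 0.0751).

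LATS2 encodes the kinase that phosphorylates YAP, and its gene is itself switched on by YAP. Its brightest probe set read 682, 691 and 709 in si-BAP1, 688, 683 and 686 in si-MBD5, and 575, 589 and 514 in si-Control arrays. Both knockdowns lay wholly above control and overlapped each other. LATS2 rose by log2 0.31 in si-BAP1 cells (SE 0.046, limma adjusted p = 2.7e-04) and by 0.29 in si-MBD5 cells (SE 0.046, limma adjusted p = 8.7e-04). The difference between the knockdowns was 0.016, with a 95% interval of -0.083 to 0.12. Its second probe set read 99.6 to 101 in si-BAP1, 87.6 to 100.03 in si-MBD5 and 81.4 to 85.5 in si-Control arrays, and passed in si-BAP1 cells (log2 0.24) but not in si-MBD5 cells (0.14, limma adjusted p = 0.0768). The third LATS2 probe set was below the filter, at 14.0 to 17.2 in all arrays.

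AMOTL2, an angiomotin that binds YAP at cell junctions and is the other feedback target, was not called higher in either knockdown. On its brightest probe set it read 172, 179 and 171 in si-BAP1 arrays, 145, 161 and 161 in si-MBD5 arrays, and 191, 190 and 177 in si-Control arrays. The si-MBD5 arrays were the lowest and did not overlap either other group, while si-BAP1 and si-Control arrays overlapped. AMOTL2 fell in si-MBD5 cells (log2 -0.23, SE 0.049, limma adjusted p = 0.00523) and had log2 -0.086 in si-BAP1 cells (95% interval -0.19 to 0.020, limma adjusted p = 0.251). The second AMOTL2 probe set, near the filter at 24.2 to 30.8, had log2 0.062 in si-MBD5 cells, the third was below the filter, and the call ended on the mean of probe sets (log2 -0.086, limma adjusted p = 0.123).

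AXL, a receptor tyrosine kinase of the TAM family that promotes migration and drug resistance, was lower in both knockdowns. Its brightest probe set read 815, 845 and 832 in si-BAP1, 843, 878 and 784 in si-MBD5, and 945, 945 and 960 in si-Control arrays. No knockdown array reached a control array, and the knockdowns overlapped each other. AXL fell by log2 0.19 in si-BAP1 cells (SE 0.040, limma adjusted p = 0.00359) and by 0.18 in si-MBD5 cells (SE 0.040, limma adjusted p = 0.00693), and the knockdowns differed by -0.0057 (95% interval -0.093 to 0.081). The dimmer AXL probe set read 125 to 126 in si-BAP1, 125 to 134 in si-MBD5 and 125 to 131 in si-Control arrays. It gave log2 -0.031 and 0.0068 for the knockdowns, and on the mean of both probe sets the si-MBD5 call ended (limma adjusted p = 0.102).

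DOCK5, an exchange factor that activates the small GTPase Rac, was the member called between the knockdowns. Its brightest probe set read 894, 976 and 868 in si-BAP1 arrays, 709, 734 and 699 in si-MBD5 arrays, and 715, 801 and 794 in si-Control arrays. All si-BAP1 arrays were above all others, and si-MBD5 arrays overlapped the controls through control replicate 1. DOCK5 rose by log2 0.24 in si-BAP1 cells (SE 0.051, limma adjusted p = 0.00349), and had log2 -0.11 in si-MBD5 cells (95% interval -0.22 to 0.0045, limma adjusted p = 0.196). The difference of si-BAP1 from si-MBD5 was log2 0.35 (SE 0.051, limma adjusted p = 7.4e-04). Its other probe sets, at 49.5 to 72.4, differed by 0.089 and 0.19 between the knockdowns and did not pass there or against control. On the mean of the 3 probe sets the rise in si-BAP1 cells ended (log2 0.11, limma adjusted p = 0.0678).

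F3 encodes tissue factor, the cell-surface starter of blood coagulation, and ANKRD1 a nuclear ankyrin-repeat protein; both gave weak signals here. F3 read 46.6, 45.7 and 50.4 in si-BAP1, 53.0, 54.2 and 52.5 in si-MBD5, and 51.9, 53.7 and 50.2 in si-Control arrays. The si-BAP1 arrays overlapped control at their highest value and lay below all si-MBD5 arrays. Log2 fold changes were -0.097 in si-BAP1 cells (95% interval -0.20 to 0.0047) and 0.027 in si-MBD5 cells (-0.075 to 0.13), and the knockdowns differed by -0.12 (limma adjusted p = 0.127). Its other probe sets, with means of 22.2 and 7.10, were below the filter. ANKRD1 read 14.6, 14.4 and 15.05 in si-BAP1, 15.7, 14.4 and 14.4 in si-MBD5, and 10.8, 13.2 and 14.4 in si-Control arrays on its 1 probe set. It stood at the 24.6th percentile of signal, and without the filter neither knockdown passed (limma adjusted p = 0.257 and 0.266).

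TEAD1 and YAP1 encode the proteins through which the signal reaches the targets, and neither passed on its brightest probe set. Like the brightest probe set of CCN2, both are of types that can match several transcripts. TEAD1 read 1771, 1748 and 1771 in si-BAP1, 1723, 1751 and 1734 in si-MBD5, and 1751, 1748 and 1675 in si-Control arrays, with overlap between all groups. Its log2 fold changes were 0.032 in si-BAP1 cells (95% interval -0.030 to 0.093) and 0.0096 in si-MBD5 cells (-0.052 to 0.071). The second TEAD1 probe set read 65.5 to 68.0 in si-BAP1, 67.8 to 74.3 in si-MBD5 and 58.0 to 66.7 in si-Control arrays, and did not pass (log2 0.083 and 0.14). The third was below the filter.

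YAP1 had 8 probe sets, all above the filter. The brightest read 1148, 1219 and 1233 in si-BAP1, 1233, 1225 and 1083 in si-MBD5, and 1105, 1071 and 1169 in si-Control arrays, with groups overlapping. It had log2 0.10 in si-BAP1 cells (95% interval -0.0049 to 0.21, limma adjusted p = 0.17) and 0.079 in si-MBD5 cells (-0.031 to 0.19, limma adjusted p = 0.346). Without si-MBD5 replicate 3 the value for si-MBD5 was 0.14 and passed (limma adjusted p = 0.0446). All 8 probe sets were positive in both knockdowns, at 0.042 to 0.28 in si-BAP1 and 0.036 to 0.17 in si-MBD5 cells, though they share arrays and a target and are not separate replicates. In si-BAP1 cells the dimmest YAP1 probe set passed, at 40.1, 39.0 and 35.3 against 24.9, 29.5 and 31.6 in si-Control arrays (limma adjusted p = 0.00655). In si-MBD5 cells a different one passed, at 653, 625 and 668 against 592, 592 and 576 (log2 0.14, limma adjusted p = 0.0386). On the mean of the 8 probe sets YAP1 rose in si-BAP1 cells (log2 0.12, limma adjusted p = 0.0289).

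**Figure D3:**
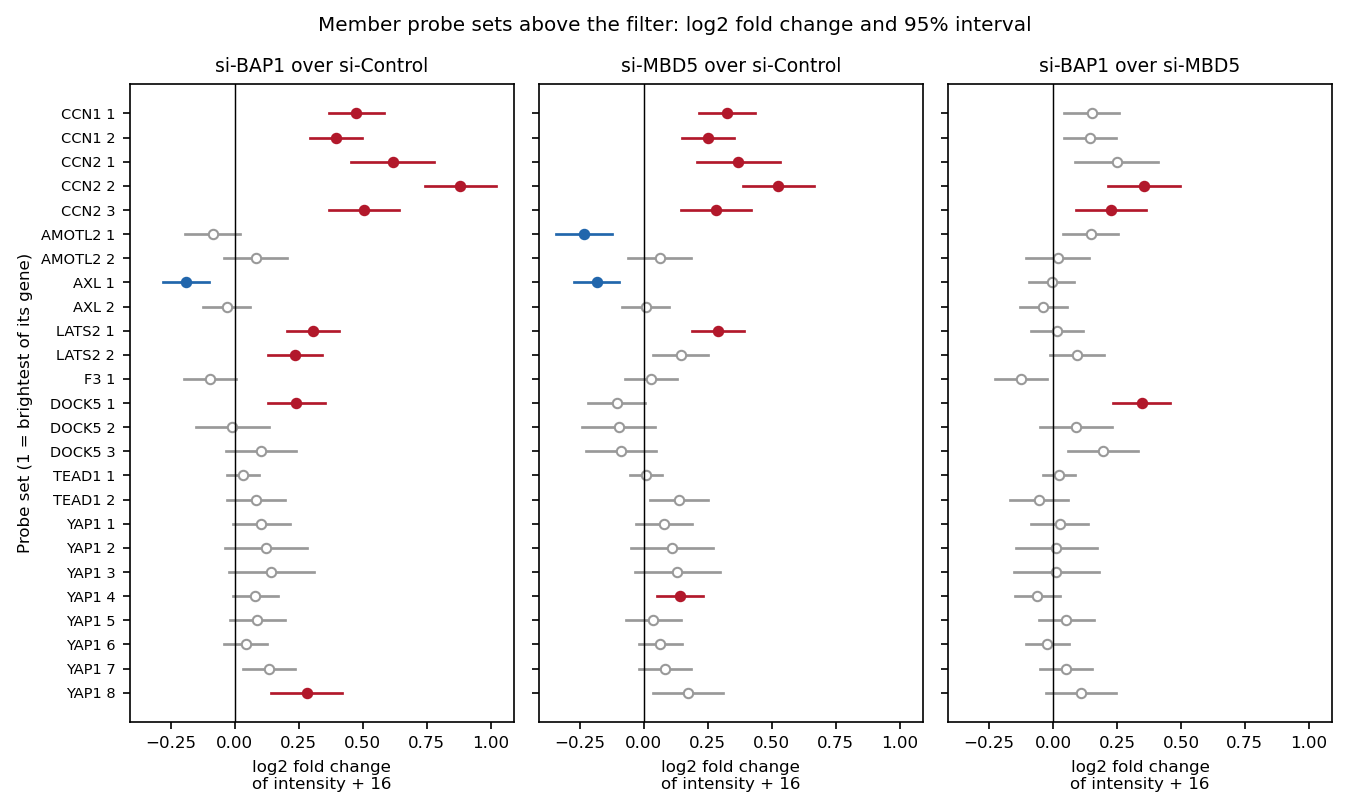
Log2 fold change of intensity + 16 (horizontal axis) with its 95% interval for the 25 member probe sets above the filter, numbered from the brightest of each gene, in the 3 comparisons. Filled points passed an adjusted p of 0.05 over all probe sets (red higher, blue lower), and all 5 CCN1 and CCN2 probe sets are filled in both comparisons with si-Control.

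The 8 targets belong to a 22-gene signature of YAP and TAZ activity, and its other 14 genes were read for comparison, 13 of them above the filter. In si-BAP1 cells 3 of the 13 rose and 2 fell, and in si-MBD5 cells 4 rose and 3 fell, with medians of 0.012 and 0.028. The rises in both were in IGFBP3, a secreted binder of insulin-like growth factors (284 ± 17 in si-BAP1, 259 ± 12 in si-MBD5, 199 ± 19 in si-Control), the RNA-binding protein RBMS3 (log2 0.55 and 0.40) and the forkhead factor FOXF2 (0.45 and 0.18). CCDC80, a matrix protein, rose in si-MBD5 cells (log2 0.29, limma adjusted p = 0.0229), a call that held in 15 of 18 alternatives. GADD45A, a stress gene that p53 also controls, fell in both (651 ± 44 in si-BAP1, 561 ± 36 in si-MBD5, 908 ± 14 in si-Control). MYOF, a membrane repair protein, had smaller falls (log2 -0.099 and -0.10, limma adjusted p = 0.0298 and 0.039). Its call held in 12 of 20 alternatives in si-BAP1 cells, ending for example with median centring, and in 9 of 20 in si-MBD5 cells, ending for example with quantile scaling. NT5E, the ectoenzyme CD73, fell in si-MBD5 cells (49.5 ± 6.6 against 77.4 ± 7.5 in si-Control) and was higher in si-BAP1 than in si-MBD5 cells (log2 0.39, limma adjusted p = 0.00629). Over the 20 tested genes of the whole signature, 7 rose and 3 fell in si-BAP1 cells, and 7 rose and 5 fell in si-MBD5 cells. That is 10 and 12 of 20 called, members included, beside 23.5% and 16.3% of all genes, and no test was made of the difference.

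Among 8 TEAD partners, 6 were tested. TEAD4, another TEAD factor, rose in both knockdowns, at 322 ± 4.4 in si-BAP1 and 301 ± 9.0 in si-MBD5 against 240.2 ± 9.0 in si-Control arrays (log2 0.40 and 0.31, limma adjusted p = 1.3e-05 and 2.8e-04). In si-BAP1 cells TEAD2 (log2 0.17) and VGLL4, a cofactor that competes with YAP for TEAD factors (0.23), also rose, so that 3 of 6 rose and 0 fell. In si-MBD5 cells 1 rose and 0 fell. Among all genes 23.5% were called in si-BAP1 and 16.3% in si-MBD5 cells, and no test was made against these shares. WWTR1, which encodes TAZ, read 218 ± 9.6 in si-BAP1, 225 ± 13 in si-MBD5 and 237 ± 6.8 in si-Control arrays and did not pass (limma adjusted p = 0.131 and 0.402), but with quantile scaling it passed as lower in si-BAP1 cells (log2 -0.13, limma adjusted p = 0.0306). TEAD3 had log2 -0.072 and -0.081, VGLL2 had -0.0058 and 0.13, and VGLL1 and VGLL3 were below the filter.

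Of 20 core Hippo genes 18 were tested. In si-BAP1 cells 4 rose and 2 fell, and in si-MBD5 cells 4 rose and 3 fell (medians 0.062 and -0.021). Over all genes 23.5% and 16.3% were called, and no test was made of the difference. AMOTL1, the angiomotin related to AMOTL2, rose in both (log2 0.28 and 0.20), as did the LATS inhibitor AJUBA (0.27 and 0.17) and the scaffold WWC1 (0.18 and 0.17). Of 20 alternatives the si-MBD5 call held in 20 for AMOTL1, 16 for AJUBA and 12 for WWC1. The si-BAP1 call held in 20, 20 and 17. STK4 (log2 -0.16 and -0.14) and the LATS cofactor MOB1A (-0.16 and -0.20) fell in both on their brightest probe sets. NF2, which encodes the tumour suppressor merlin, rose in si-BAP1 cells (200.1 ± 1.6 against 179 ± 1.4 in si-Control). The scaffold RASSF1 fell (log2 -0.15) and the kinase TAOK3 rose (0.18) in si-MBD5 cells. The si-MBD5 count of 7 dropped to 4 without si-MBD5 replicate 1, 3 without si-Control replicate 1 and 2 without si-Control replicate 2. On the mean of probe sets it was 4 higher and 0 lower: STK4 (limma adjusted p = 0.05001), MOB1A (log2 -0.036, limma adjusted p = 0.594) and RASSF1 (limma adjusted p = 0.0556) lost their calls in si-MBD5 cells. In si-BAP1 cells MOB1A turned to log2 0.066 (limma adjusted p = 0.249) and NF2 lost its call on that mean. LATS1 and AMOT were below the filter.

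Of 10 further YAP targets 7 were tested. CAV1, the coat protein of caveolae, rose to 856 ± 40 in si-BAP1 and 768 ± 16 in si-MBD5 cells, against 584 ± 13 in si-Control cells (log2 0.54 and 0.39). THBS1, the matrix glycoprotein thrombospondin, rose by log2 0.53 and 0.41. MYC rose in si-BAP1 cells (log2 0.25), where DKK1, a Wnt inhibitor, and ARHGAP29, a GTPase-activating protein, fell (-0.30 and -0.22). The ARHGAP29 call held in 19 of 20 alternatives, ending without _x_at or _s_at probe sets (log2 -0.16, limma adjusted p = 0.0851). BIRC5, the mitotic survivin, rose in si-MBD5 cells (log2 0.30) and was lower in si-BAP1 than in si-MBD5 cells (-0.35, limma adjusted p = 2.5e-05). EDN1, which encodes endothelin, did not pass (log2 0.034 and 0.017). In all, 3 of 7 rose and 2 fell in si-BAP1 cells, and 3 rose and 0 fell in si-MBD5 cells. The shares called over all genes were 23.5% and 16.3%, and the difference was not tested. INHBA was below the filter, and the others were not analysed here.

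Among relatives of CCN1, CCN2 and AXL, CCN5 was called in opposite directions. It rose in si-BAP1 cells (1885 ± 47 against 1501 ± 13 in si-Control, log2 0.33) and fell in si-MBD5 cells (1356 ± 59, log2 -0.15), with log2 0.47 between the knockdowns (limma adjusted p = 3.8e-06). CCN3 fell in both (log2 -0.43 and -0.21). The receptor TYRO3 and GAS6, the ligand of AXL, did not pass in either (log2 -0.0050 and 0.023 for TYRO3, -0.11 and -0.065 for GAS6), and CCN4, CCN6 and MERTK were below the filter. In this list 1 of 4 tested genes rose and 1 fell in si-BAP1 cells, and 0 rose and 2 fell in si-MBD5 cells. The shares called over all genes were 23.5% and 16.3%, and no test was made against them. The si-MBD5 count of this list was 1 without si-MBD5 replicate 1, without si-MBD5 replicate 3 or without si-Control replicate 3.

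**Figure D4:**
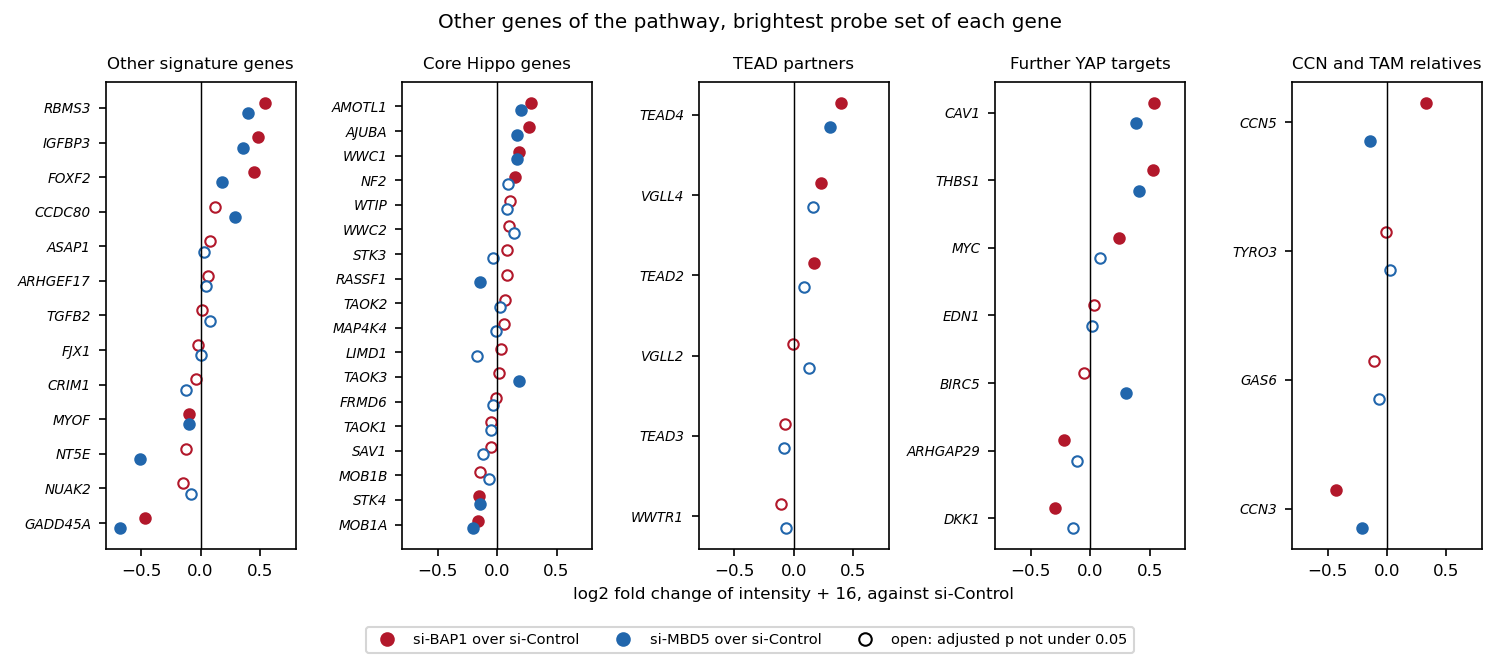
Log2 fold change of intensity + 16 against si-Control (horizontal axis) for the tested genes of 5 further lists, in si-BAP1 (red) and si-MBD5 cells (blue), filled where the adjusted p was under 0.05. TEAD4, CAV1, THBS1, IGFBP3 and RBMS3 are filled and positive in both, GADD45A is filled and negative in both, and CCN5 is filled with opposite signs.

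Genes nearest to 3 of the members were found by the distance over the 9 arrays of log2 values taken from the control mean. Nearest to CCN2 was THBS1, at a distance of 0.21 log2 units, followed by LUZP2 (0.21) and BCAT1 (0.22), where the median gene lay at 1.297. Nearest to CCN1 were GAS7, LARP1B and ADCY9 (0.10, 0.11 and 0.12, median gene 1.03), each with log2 0.45 to 0.50 in si-BAP1 and 0.29 to 0.33 in si-MBD5 cells. Nearest to TEAD1, whose profile was flat, were SNAPC5, FTSJ3 and TOX4 (0.033 to 0.044, median gene 0.28).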

How the data were processed

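The authors deposited 1 table of intensity on a linear scale, made with MAS5 per the submitters' processing notes. The sources used here give no MAS5 version. Its 49395 probe sets hold 102 controls, 44988 with 1 symbol, 1832 with several and 2473 with none, and symbols were updated through gene identifiers with a RefSeq table (44961 matched). Per the labels, 6 ug of total RNA was made into biotin-labelled cRNA. Near-equal array medians show scaling whose method is not stated, and no more was applied.

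Log2(intensity + 16) was fitted with 3 group means over all 9 arrays in limma 3.58.1 (R 4.3.3; 6 residual degrees of freedom, intensity trend), once for 12434 genes by brightest probe set and once for 29584 probe sets, with means above the 40th percentile. P-values were Benjamini-Hochberg adjusted over all genes or probe sets, at a threshold of 0.05, and measure the spread between replicates of 1 line. Gene values were adjusted over genes, and values of dimmer probe sets and of ANKRD1 over probe sets. The number of arrays limits precision (median SD within groups 0.061 log2). The procedure was tested on simulated data. Members and lists were chosen with earlier results of these data known. Named genes were all members, list genes that passed (up to 4 by smallest p per comparison, every gene of lists of 10 or fewer; further passing genes complete small counts and were named after their values were seen), and the 3 nearest to CCN1, CCN2 and TEAD1. Alternatives were constants of 1 and 64, quantile and median scaling, a filter at the 60th percentile or none, averaged probe sets, no _x_at or _s_at probe sets, replicate block, no trend, 2 groups alone, and each array left out. Figures used matplotlib 3.10.9 in Python 3.11.15.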

Additional observations from a re-analysis of the deposited data

How the results depend on the processing

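Across 20 alternatives the count of member genes called in si-BAP1 cells against control was 5 in each, and that of member probe sets was 9 to 11 over 19. The 5 genes were not always the same. With the mean of probe sets YAP1 was called (limma adjusted p = 0.0289) in place of DOCK5 (limma adjusted p = 0.0678). In si-MBD5 cells the member count was 3 with the mean of probe sets (5 to 6 with 1 array left out), with 4 core Hippo genes (2 to 7 with 1 array left out) and 2 TEAD partners. Of CCN and TAM relatives, 1 to 2 were called in si-MBD5 cells, and 1 to 2 between the knockdowns, with 1 array left out. Between the knockdowns, 2 member genes were called with a constant of 64, the 60th percentile filter, no _x_at or _s_at probe sets, or 2 groups alone, and 3 with the mean of probe sets (1 to 2 with 1 array left out). There, before any alternative, 2 of 18 core Hippo genes and 2 of 7 further YAP targets were called. So were 2 of 4 CCN and TAM relatives, 3 of 13 other signature genes and 0 of 6 TEAD partners. Over all genes 9.97% were called, and no test was made against that share. The core Hippo count was 1 with median centring, no filter, averaged probe sets, no _x_at or _s_at probe sets, or 2 groups alone. It was 1 to 2 with 1 array left out. Further YAP targets were 1 with the replicate block or 2 groups alone (1 to 3 with 1 array left out). With 1 array left out, all genes called were 1266 to 1972 in si-MBD5 cells and 721 to 1328 between the knockdowns. Signs turned for 1 value that had passed, MOB1A in si-BAP1 cells (0.066 with the mean of probe sets), and for values that had not. These were BIRC5 in si-BAP1 cells with the mean of probe sets (0.044), VGLL2 there without si-BAP1 replicate 2 (0.023) or si-Control replicate 1 (0.0031; range -0.023 to 0.023) and TYRO3 there without si-BAP1 replicate 2 (3.91e-04; range -0.0077 to 3.91e-04). Between the knockdowns these were LATS2 with quantile scaling (-0.0017), AXL with median centring (0.0022) and without si-BAP1 replicate 1 (0.0075), si-MBD5 replicate 1 (0.0017) or si-MBD5 replicate 2 (0.031; range with 1 array left out -0.050 to 0.031), TEAD1 with the mean of probe sets (-0.016) and without _x_at or _s_at probe sets (-0.054), and YAP1 without si-MBD5 replicate 3 (-0.034; range -0.034 to 0.058). In si-MBD5 cells TEAD1 turned with median centring (-0.00221) and without si-Control replicate 3 (-0.011; range -0.011 to 0.021). The GAPDH ratio differed by 0.023 between si-BAP1 and si-Control (two-sided exact permutation p = 0.3), opposite to ACTB. It differed by 0.013 between si-BAP1 and si-MBD5 (two-sided exact permutation p = 0.2), also opposite to ACTB. The causes were not tested. Same-numbered replicates did not pair (3 of 9 correlations of deviations over 0.1, from -0.43 to 0.48). Correlations of differently numbered replicates ran from -0.56 to 0.47. Among si-BAP1 replicate 1, si-MBD5 replicate 3 and si-Control replicate 1, correlations were 0.34 to 0.47. Among si-BAP1 replicate 2, si-MBD5 replicate 2 and si-Control replicate 3 they were 0.31 to 0.48. Among si-BAP1 replicate 3, si-MBD5 replicate 1 and si-Control replicate 2 they were -0.21 to 0.0078. Deviations shared between arrays of different groups were not tested. The replicate block, which follows the numbers only, changed no call of a member gene. It ended the calls of MYOF in both knockdowns (limma adjusted p = 0.062 and 0.0791) and of CAV1 between them (0.0516).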
